A study of Mus musculus with 2 samples.

Results

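Immediate early genes are transcribed within minutes of a stimulus without the need for new protein, and most of the 10 measured here encode transcription factors. They were taken as the rows of the 2 deposited count matrices whose symbol is Fos, Fosb, Jun, Junb, Jund, Egr1, Atf3, Ier2, Nr4a1 or Dusp1, and all 10 of 10 were found, each on 1 row, among 28692 genes. The data are single-cell RNA counts from mouse small cell lung cancer, a neuroendocrine lung tumour. Tumours came from mice of mixed strain carrying CGRPCreER/+, the floxed tumour suppressor alleles Rbf/f and P53f/f among others, and the Rosa26mTmG reporter. Cre recombinase driven from the CGRP locus acts in neuroendocrine cells, and both groups carried these alleles. The reporter switches cells to GFP where Cre has acted, and the sort kept live cells with GFP. There was 1 library from animals on saline (vehicle) and 1 from animals on cisplatin, which crosslinks DNA, dosed at 5 mg/kg every 4 days over 2 weeks. The library protocol names etoposide beside cisplatin, and whether etoposide was given is unclear. How many animals or tumours were pooled per library, and the age of the mice, were not given in the sources used here.

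Fos and Jun proteins pair through leucine zippers into the AP-1 factor, which binds DNA at AP-1 and CRE-like motifs. Growth factor and stress kinases drive the first wave of these genes through serum response factor and CREB-type factors at their promoters. Dusp1 encodes a phosphatase that switches those kinases off, and Atf3 a repressor-type partner of Jun that is also a target of the integrated stress response. The same genes are known to respond to enzymatic dissociation of tissue, and here tumours were digested with collagenase IV and DNase for up to 45 min. Digestion, library and treatment cannot be told apart with 1 library per group.

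Unique molecular identifiers (UMIs) numbered 32519922 over 3726 barcodes for vehicle and 28777462 over 4254 barcodes for cisplatin. Filters on detected genes, mitochondrial share and markers of other cell types left 3650 vehicle and 4213 cisplatin cells, called the tumour class, with median depths of 8206 and 5939 UMIs. In each library 13 of 14 neuroendocrine markers were at 10 counts per 1000000 UMIs (CPM) or more, and 23 barcode sequences occurred in both libraries. Of the deleted genes, Rb1 was at 19.7 and 13.7 CPM and Trp53 at 71.6 and 81.7 CPM, but both libraries carry the floxed alleles, so these levels check neither label. Levels are UMIs summed over the tumour class and divided by all UMIs of the same cells. With no replicates there was no test, and every exact 95% interval reflects counting error alone.

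The immediate early genes were abundant in both libraries and moved apart from each other between them. Together they made up 0.949% of all vehicle UMIs and 1.13% of all cisplatin UMIs. At a 1.5-fold difference in CPM, 3 of the 10 (Atf3, Nr4a1 and Dusp1) were higher in cisplatin, against a background of 8.12% of the 13378 genes measured with at least 50 UMIs. Fosb alone was lower, against 21.4% of all measured genes. The other 6 differed by less than 1.5-fold. The median log2 ratio of the 10, cisplatin over vehicle with 1 CPM added, was 0.39, beside -0.16 for all measured genes.

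The Fos family split. Fos, the founding AP-1 subunit (GRCm38 chromosome 12, 85473890 to 85477273, plus strand), stood at 2452 CPM (2435 to 2470) under vehicle and 2533 CPM (2515 to 2552) under cisplatin, a ratio of 1.03 (1.02 to 1.04). Fosb, its close paralog and a dimer partner of Jun proteins (chromosome 7, 19302696 to 19310051, minus strand), was at 227 CPM (222 to 232) and 70.8 CPM (67.8 to 74.0). Fosb was therefore 3.20-fold lower in cisplatin (interval of the ratio 0.297 to 0.328), and only 0.374% of measured genes had a lower log2 ratio.

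The Jun family showed smaller differences. Jun stood at 1638 CPM (1624 to 1652) and 1597 CPM (1582 to 1611), a log2 ratio of -0.04. Its sign depended on the scaling and the cells: it was 0.01 without the cells of the cluster led by Gnb3 and Sfrp5, 0.09 with trimmed means of M values (TMM), 0.12 with median-of-ratios size factors and 0.12 relative to the median of all genes. Junb, which often dampens Jun activity, was at 1042 CPM (1031 to 1053) and 1349 CPM (1336 to 1363), 1.295-fold higher (1.28 to 1.31). Jund, the most constitutively expressed member of the family, was at 1192 CPM (1180 to 1204) and 1586 CPM (1571 to 1601), 1.33-fold higher (1.31 to 1.35). Jun, Junb, Jund, Atf3 and Dusp1 each overlap a gene annotated on the opposite strand, and the sources used here do not give the strand setting of the counting. Junb shares 351 bases with Prdx2, itself at 746 and 750 CPM. Atf3 overlaps the small RNA Gm24748, not analysed here, and Dusp1 shares 640 bases with Ergic1, at 27.3 and 30.4 CPM. On its own strand Dusp1 overlaps AC122252.1 (1853 bases) and AC122252.4 (227 bases), neither with a row in the matrices. Jun overlaps Junos, at 3.74 and 4.38 CPM, and Jund overlaps Gm11175, at 5.40 and 4.76 CPM.

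Egr1 and Ier2 were higher by about as much as Junb and Jund. Egr1, a zinc-finger factor induced by growth factor signalling, stood at 782 CPM (772 to 792) and 1009 CPM (998 to 1021), 1.29-fold higher (1.27 to 1.31). Ier2, a small nuclear protein of the same early response, was at 1407 CPM (1394 to 1420) and 1859 CPM (1843 to 1875), 1.32-fold higher (1.30 to 1.34). Neither passed 1.5-fold.

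The members past 1.5-fold on the high side were Atf3, Dusp1 and Nr4a1. Atf3 (chromosome 1, 191170296 to 191218039, minus strand) stood at 233 CPM (228 to 238) and 399.6 CPM (392 to 407), 1.71-fold higher (1.67 to 1.77). Dusp1 (chromosome 17, 26505590 to 26562128, minus strand) was at 446 CPM (439 to 454) and 787 CPM (777 to 797), 1.76-fold higher (1.73 to 1.80). Nr4a1, an orphan nuclear receptor (chromosome 15, 101254269 to 101274795, plus strand), was at 73.9 CPM (71.0 to 77.0) and 111 CPM (108 to 115). Its ratio of 1.51 (1.43 to 1.59) lay just past the limit, with Jund at 1.33 the nearest member on the other side. Of all measured genes, 3.74% had a higher log2 ratio than Dusp1, 4.05% than Atf3 and 6.59% than Nr4a1. All 4 called members kept their side of 0 under every alternative run.

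**Figure D1:**
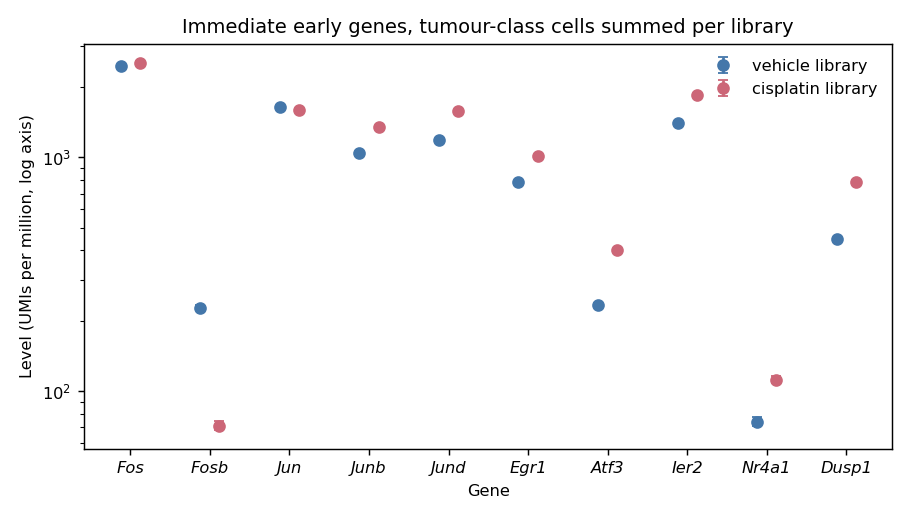
Level of each immediate early gene, in CPM on a log axis, summed over tumour-class cells of the vehicle library (blue) and the cisplatin library (red); bars are exact 95% Poisson intervals, mostly narrower than the points. Fosb is the gene whose cisplatin point lies far below its vehicle point (70.8 against 227 CPM), while Atf3, Nr4a1 and Dusp1 lie above theirs.

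The promoters of Fos and Fosb, whose ratios differed, and of the 3 members past 1.5-fold on the high side are shown for comparison. They are RefSeq sequences on GRCm38.p6, from 250 bases before to 50 bases after the annotated start, 5′ to 3′ on the gene's strand. The RefSeq starts used for Atf3, Nr4a1 and Dusp1 lie inside the gene spans given above, downstream of their 5′ ends, so other promoters of these genes are not shown. Capitals mark the TGACG core of the cAMP response element (CRE), which is bound by CREB and ATF factors, or its reverse complement CGTCA. The windows are chr12:85473640-85473939, plus strand, for Fos, chr7:19309996-19310295, minus strand, for Fosb, chr1:191183284-191183583, minus strand, for Atf3, chr15:101266596-101266895, plus strand, for Nr4a1, and chr17:26508423-26508722, minus strand, for Dusp1.
Fos: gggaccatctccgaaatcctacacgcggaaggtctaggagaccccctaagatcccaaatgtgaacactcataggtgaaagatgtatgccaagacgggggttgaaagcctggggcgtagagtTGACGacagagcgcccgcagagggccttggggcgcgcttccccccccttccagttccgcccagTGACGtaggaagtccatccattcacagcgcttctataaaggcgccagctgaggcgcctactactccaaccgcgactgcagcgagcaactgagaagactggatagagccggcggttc
Fosb: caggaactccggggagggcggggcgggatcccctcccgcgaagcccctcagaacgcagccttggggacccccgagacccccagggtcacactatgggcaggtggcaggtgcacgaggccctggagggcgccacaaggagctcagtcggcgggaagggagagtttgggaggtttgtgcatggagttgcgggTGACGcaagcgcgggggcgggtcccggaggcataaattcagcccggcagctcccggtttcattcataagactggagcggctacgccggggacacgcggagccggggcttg
Atf3: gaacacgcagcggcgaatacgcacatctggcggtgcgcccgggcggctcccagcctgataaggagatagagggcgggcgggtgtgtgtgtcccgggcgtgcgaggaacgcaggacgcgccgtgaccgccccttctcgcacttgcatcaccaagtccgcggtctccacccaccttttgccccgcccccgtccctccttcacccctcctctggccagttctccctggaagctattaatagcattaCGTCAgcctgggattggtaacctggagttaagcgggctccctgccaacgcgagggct
Nr4a1: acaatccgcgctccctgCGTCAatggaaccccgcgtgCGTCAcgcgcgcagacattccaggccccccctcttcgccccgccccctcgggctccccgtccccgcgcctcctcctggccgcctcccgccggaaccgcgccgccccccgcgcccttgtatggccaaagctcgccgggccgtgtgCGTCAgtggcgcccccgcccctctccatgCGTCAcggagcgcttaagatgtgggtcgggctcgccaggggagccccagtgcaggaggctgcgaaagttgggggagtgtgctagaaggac
Dusp1: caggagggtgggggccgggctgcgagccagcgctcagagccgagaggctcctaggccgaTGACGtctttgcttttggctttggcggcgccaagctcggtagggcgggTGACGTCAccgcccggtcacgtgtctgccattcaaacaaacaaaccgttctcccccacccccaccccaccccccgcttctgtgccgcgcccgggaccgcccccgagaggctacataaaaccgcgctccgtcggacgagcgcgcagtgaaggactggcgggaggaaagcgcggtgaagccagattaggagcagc

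Of the 8 members with a RefSeq promoter in the table, 6 held TGACG on either strand, against 20.8% of 32851 promoters of the same length. It was found in all 5 sequences printed here and in Junb. Fosb held 1 copy, Atf3 1, Fos 2, Dusp1 3 and Nr4a1 4, so the gene that was lower and the genes that were higher share the motif. The full palindrome TGACGTCA, which contains the core on both strands, was found in Dusp1 and in 1.79% of all promoters. The EGR motif GCGNGGGCG was found in Fosb and Nr4a1 (5.55% of all promoters), and TATAAA in Fos and Junb (13.6%). The AP-1 motif TGANTCA (7.81% of all promoters) and the CArG box of serum response factor (1.63%) were found in 0 of the 8 windows. The CArG box was searched as CCWWWWWWGG, with W for A or T. Only exact matches counted, so a near match such as CCTTGTATGG in Nr4a1 did not. Among these 8 the Jund window, chr8:70697489-70697788 on the plus strand, ends upstream of the gene span used for Jund, which starts at 70698949. A match is a description of the letters and says nothing of binding, and the windows are short.

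Fosb was lower against Fos in cisplatin in each cluster compared. The cells were clustered without the immediate early, upstream kinase, heat shock and stress response lists. Clusters with at least 50 tumour-class cells of a library were kept, 7 in vehicle and 8 in cisplatin. Over the whole class there were 9.25 Fosb UMIs per 100 Fos UMIs in vehicle (9.03 to 9.48) and 2.80 in cisplatin (2.67 to 2.92). By cluster the number ran from 8.58 to 12.4 in vehicle and from 2.525 to 3.67 in cisplatin. The ranges of the 2 libraries thus did not overlap. Those of Dusp1 did not overlap either, with 16.2 to 21.4 per 100 Fos UMIs in vehicle and 23.35 to 71.3 in cisplatin. How many of all measured genes have ranges apart was not counted. Within cisplatin the other members varied more against Fos than Fosb did. Atf3 ran from 12.2 to 49.0 per 100 Fos UMIs, Dusp1 from 23.35 to 71.3 and Jun from 51.8 to 184.

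**Figure D2:**
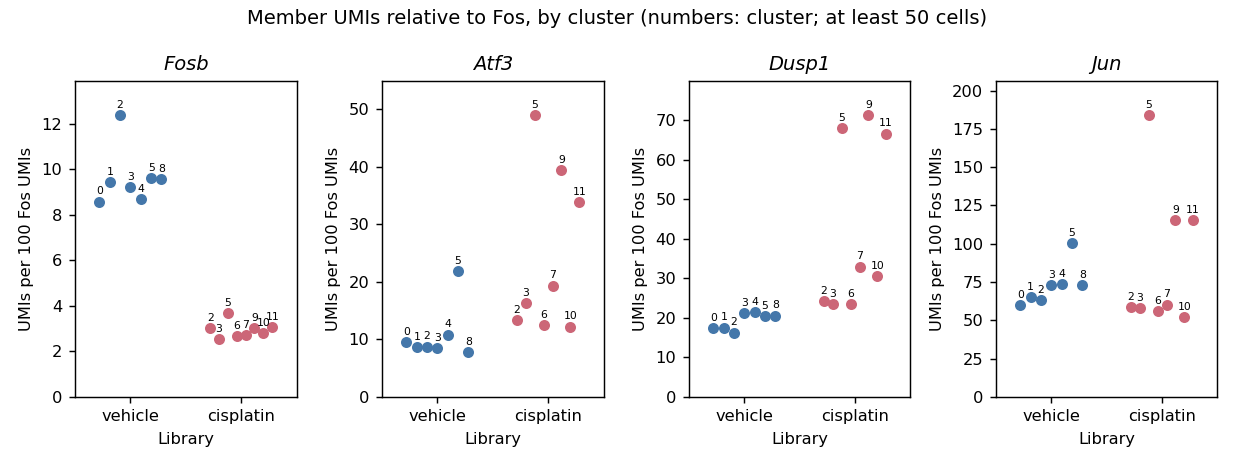
UMIs of Fosb, Atf3, Dusp1 and Jun per 100 Fos UMIs in each cluster with at least 50 tumour-class cells; each point is a cluster of the vehicle (blue) or cisplatin (red) library, with its number beside it. For Fosb the points of each library sit in a narrow band (8.58 to 12.4 and 2.525 to 3.67), while for the other genes clusters 5, 9 and 11 of the cisplatin library stand above the rest.

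Most clusters came almost wholly from 1 library, and 3 held at least 50 cells of both. In cluster 2, of low depth and led by Amt, Abhd2 and Spry2, Fosb was at 391 CPM in 172 vehicle cells and 104 CPM in 433 cisplatin cells. In cluster 3, with Ifit3, Isg15 and other interferon targets in the lead, it was at 192.5 CPM in 76 vehicle cells and 64.0 CPM in 63 cisplatin cells. In cluster 5, whose leading genes include Trib3, Nupr1 and Ddit3 of the integrated stress response and the fibroblast marker Dcn, it was at 154 CPM in 182 vehicle cells and 41.15 CPM in 140 cisplatin cells. The log2 ratio of Fosb was thus -1.90, -1.57 and -1.88 in the 3 clusters, beside -1.67 over the class. Atf3 was higher in cisplatin in all 3 (log2 ratios 0.75, 1.21 and 0.64), as was Dusp1 (0.71, 0.42 and 1.21). For Nr4a1 the counts were too low to give a direction in each cluster. Its ratio was 1.325 (1.014 to 1.752) in cluster 2, 1.17 (0.786 to 1.74) in cluster 3 and 0.705 (0.462 to 1.06) in cluster 5, where it had 80 vehicle and 36 cisplatin UMIs. Members within 1.5-fold over the class were not so in every cluster. Ier2 had ratios of 1.66 (1.55 to 1.77), 1.61 (1.46 to 1.77) and 1.09 (1.01 to 1.18) in clusters 2, 3 and 5. Junb had 1.56 (1.44 to 1.68), 1.30 (1.17 to 1.45) and 1.39 (1.28 to 1.51), and Fos 1.096 (1.043 to 1.152), 1.213 (1.122 to 1.31) and 0.699 (0.652 to 0.7501). Jun, Jund and Egr1 had ratios between 0.969 and 1.41 in these clusters.

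Cells were also split by total UMIs into tertiles within each library, with median depths from 4346 to 12400 UMIs in vehicle and from 3735 to 9728 UMIs in cisplatin. The log2 ratio of Fosb was -1.73, -1.83 and -1.49 from the lowest to the highest tertile. That of Atf3 was 0.97, 0.65 and 0.79, that of Dusp1 0.62, 0.69 and 0.99, and that of Nr4a1 0.70, 0.41 and 0.66. These 4 members kept their direction in every tertile, and Nr4a1 was under 1.5-fold in the middle one. Junb varied most among the others, at 1.65-fold (1.60 to 1.70) in the lowest, 1.135-fold (1.107 to 1.163) in the middle and 1.279-fold (1.251 to 1.308) in the highest tertile. Fos had ratios of 1.125 (1.101 to 1.15), 0.937 (0.921 to 0.953) and 1.08 (1.06 to 1.09), so its sign differed between tertiles. The sign of Jun differed too, with ratios of 0.990 (0.963 to 1.017), 0.889 (0.870 to 0.908) and 1.042 (1.023 to 1.062).

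Within a library, members also moved in opposite directions between cell groups. In the stress-response cluster of the cisplatin library, Fos was at 1122 CPM, below its class level of 2533 CPM, while Jun was at 2065 CPM and Atf3 at 550 CPM, above their class levels of 1597 and 399.6 CPM. The vehicle cells of the same cluster had Fos at 1604 CPM, below the class level of 2452 CPM, and Atf3 at 351 CPM, above 233 CPM. Jun in those vehicle cells, at 1608 CPM, was close to its class level of 1638 CPM. Leading genes of cluster 9 included Sst, Isl1 and Hoxb8, and those of cluster 11 Ceacam10, Pnoc and Hhex, all from a set of delta-like markers. In the cisplatin cells of both, every member was below its class level, so these clusters show no opposite directions. Fos was at 870 and 1112 CPM there, Fosb at 26.2 and 33.9 CPM, Jun at 1004 and 1284 CPM and Dusp1 at 620 and 740 CPM. The class levels of Fosb and Dusp1 were 70.8 and 787 CPM. Among the 8 cisplatin clusters, Fos spanned 4.27-fold and Dusp1 1.47-fold. Leaving out both of these clusters moved the log2 ratio of Fos from 0.05 to 0.26 and that of Fosb from -1.67 to -1.47.

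Cells below the limit for mitotic transcripts had a higher CPM of each member, that is a larger share of their UMIs. A cell was called mitotic with at least 2 UMIs over 10 mitotic genes, a class cut from a score that depends on depth, and 58.4% of vehicle and 51.4% of cisplatin cells passed. Fos was at 3026 CPM in non-mitotic and 2184 CPM in mitotic vehicle cells, and at 3031 and 2228 CPM in cisplatin. Ier2 was at 1748 and 1248 CPM in vehicle and at 2326 and 1572 CPM in cisplatin. Each of the 10 members had a higher CPM in non-mitotic than in mitotic cells of both libraries. UMIs per cell were not compared. The mitotic cells were also deeper, with median totals of 9540 against 6840 UMIs in vehicle and 7654 against 4851 in cisplatin, and the part of depth was not tested. Fosb was at 296 CPM in non-mitotic vehicle and 84.9 CPM in non-mitotic cisplatin cells, and at 195 and 62.2 CPM in mitotic cells. The Fosb difference was thus present on both sides of that split.

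To compare cells at equal depth, each was thinned at random to 3000 UMIs, which kept 3506 vehicle and 3852 cisplatin cells and left out 144 and 361. A Fosb UMI was then found in 42.8% (41.2 to 44.5%) and 18.2% (17.0 to 19.4%) of cells, against 67.2% and 30.3% without thinning. A Dusp1 UMI was found in 61.4% (59.8 to 63.0%) and 73.6% (72.2 to 75.0%), against 81.6% and 86.0% unthinned. For Atf3 the shares were 39.0% (37.4 to 40.7%) and 49.8% (48.2 to 51.4%), against 60.8% and 65.6% unthinned. For Nr4a1 they were 16.2% (15.02 to 17.5%) and 23.2% (21.8 to 24.5%), against 32.8% and 35.6% unthinned. Jund (93.4 and 95.5%), Jun (92.8 and 91.1%), Ier2 (88.6 and 91.8%), Junb (83.4 and 85.2%) and Egr1 (80.3 and 85.4%) were in most thinned cells, against 93.4 to 99.3% unthinned over these genes and both libraries.

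Fos was more uneven between cells of the cisplatin library, although its summed level was within 1.5-fold. By variance over the mean, so was every other member except Fosb, but this depended on the measure. At equal depth, the 5% of cells with the most Fosb held 27.98% of its UMIs in vehicle and 43.35% in cisplatin. That share was lower in cisplatin for Atf3 (32.49 and 30.76%), Dusp1 (23.67 and 22.23%) and Nr4a1. It was higher for Fos (15.45 and 18.61%), Jun, Junb and Jund, and nearly equal for Egr1 and Ier2. No Fos UMI was found in 4.51% of the vehicle cells at equal depth and 7.996% of the cisplatin cells, while without thinning 98.6% and 96.9% of cells had one. At the other end the 90th percentile was 16 Fos UMIs in vehicle and 19 in cisplatin, with medians of 7 and 6. The variance over the mean of Fos was 4.79 and 7.58. That of Ier2 was 4.37 and 5.67, that of Junb 3.33 and 5.29, that of Jun 3.58 and 3.77, and that of Fosb 1.82 and 1.37. For Jund it was 1.76 and 2.70, for Egr1 2.13 and 2.58, and for Atf3 2.16 and 3.29. For Nr4a1 it was 1.55 and 1.83, and for Dusp1 2.24 and 3.095. Cells of cluster 11 made up 29.9% of the cisplatin cells with no Fos UMI and 13.1% of those with one.

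No cell type in the sort is known to lack these genes, so free RNA could not be measured against a negative type. In barcodes left out for markers of other cell types, a Fosb UMI was found in 8 of 22 vehicle barcodes (36.4%; 17.2 to 59.3%; median depth 9010 UMIs) and 2 of 5 cisplatin barcodes (40.0%; 5.27 to 85.3%; median depth 7100 UMIs), all without thinning. So few barcodes set no background, and the part of free RNA was not tested.

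Members were detected together more often than their single shares give. With 3000 UMIs per cell, the median cell had a UMI of 7 of the 10 members in each library. All 10 were found in 3.05% (2.51 to 3.68%) of vehicle and 3.14% (2.61 to 3.74%) of cisplatin cells, where the product of the 10 shares gives 0.818% and 0.825%. At most 4 were found in 7.67% and 6.59% of cells, where the product gives 2.19% and 1.46%. At least 3 members were found in 99.09% and 99.04% of cells, where the product gives 99.98% and 99.99%. This measure is near its ceiling and was not set against free RNA.

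**Figure D3:**
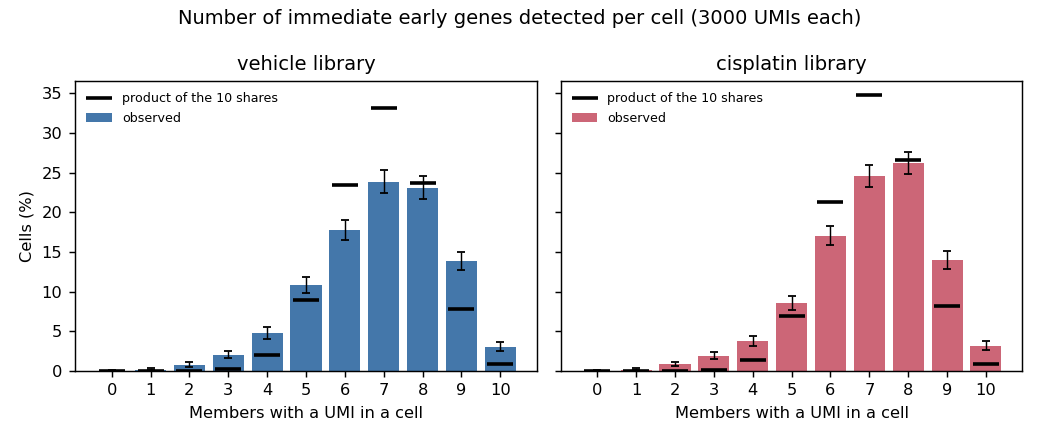
Share of thinned tumour-class cells (3000 UMIs each) in which a given number of the 10 genes had a UMI, for the vehicle (left) and cisplatin (right) libraries; error bars are exact 95% intervals and black dashes the share given by multiplying the 10 single-gene shares. Bars exceed the dashes at 1 to 5 genes and at 9 and 10 genes, and lie below them at 6, 7 and, narrowly, 8 genes. With all 10 genes in vehicle the share was 3.05% against 0.818%.

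The ratio of joint detection to the product of shares was under 1.5 for all 45 pairs, with a highest value of 1.29 in vehicle (Atf3 and Nr4a1) and 1.36 in cisplatin (Fosb and Nr4a1). That ratio cannot be high for members found in nearly every cell, but it was also low for the rarer ones. The odds ratio was above 1 for 44 of 45 pairs in vehicle and 45 of 45 in cisplatin, with medians of 2.09 and 2.31. The exception was Fos and Jund in vehicle, at 0.994, beside 2.97 in cisplatin. Only 10 of 3506 vehicle cells and 33 of 3852 cisplatin cells had neither gene. The log-scaled levels of Fos and Jund had a Pearson r of 0.25 in vehicle and 0.36 in cisplatin. Fos and Jun, the classical AP-1 pair, had odds ratios of 3.77 and 4.59, and Fos and Fosb 2.615 and 3.17. Over cells, the log-scaled levels of Junb and Ier2 had the highest Pearson r of any pair (0.44 over 3506 vehicle cells and 0.52 over 3852 cisplatin cells), and Fosb and Nr4a1 the lowest (0.08 and 0.11). The cells of 1 library share their dissociation and free RNA, so these are descriptions.

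**Figure D4:**
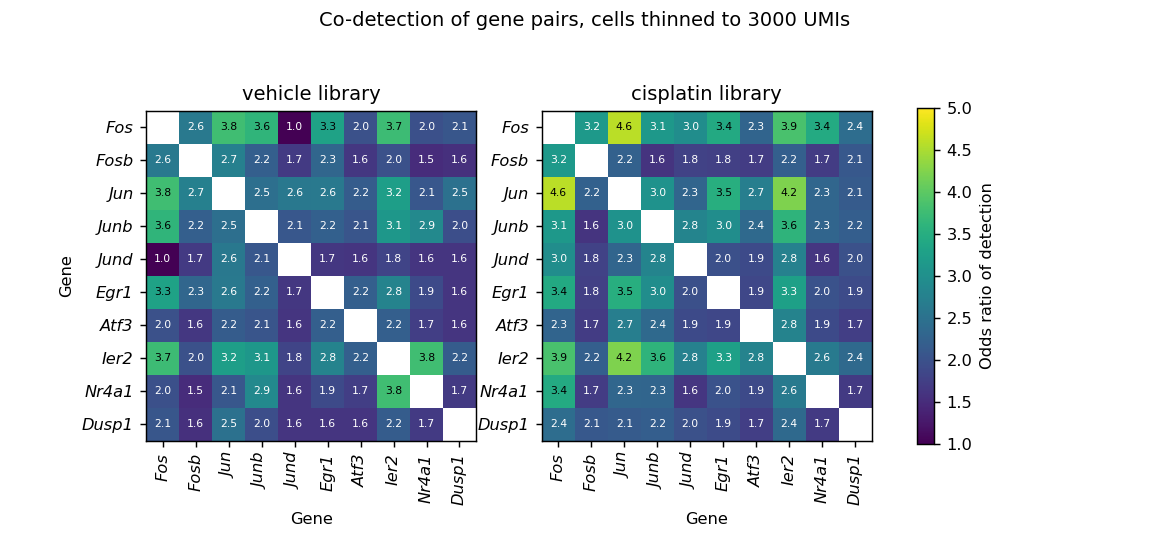
Odds ratio of detection for each pair of genes over thinned tumour-class cells of the vehicle (left) and cisplatin (right) libraries; the colour scale runs from 1 to 5. Fos and Jun reach 3.77 and 4.59, Ier2 and Nr4a1 are as high as 3.77 in vehicle, and Fos and Jund form the dark cell in vehicle at 0.994.

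Co-detection was also present inside single clusters. In cluster 1, with 1858 thinned vehicle cells, 45 of 45 odds ratios were above 1, with a median of 2.18. In vehicle cluster 0, with 540 cells, 44 of 45 were above 1, with a median of 2.01. In vehicle cluster 4, with 531 cells, 43 of 45 were above 1, with a median of 1.81 and a lowest value of 0.134. By log-scaled levels, the lowest Pearson r of any pair in vehicle cluster 4 was 0.04. In cluster 6, with 1371 thinned cisplatin cells, 45 of 45 were above 1 with a median of 3.12, and in the mitotic cluster 10, with 872, 45 of 45 with a median of 2.73. In cluster 11, with delta-like markers and 555 cisplatin cells, 34 of 45 were above 1, with a median of 1.48.

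Cells with more Fos more often had Fosb, Atf3 and Dusp1, and the libraries differed at equal Fos. With 1 to 4 Fos UMIs, Fosb was found in 28.9% (26.1 to 31.7%) and 10.4% (8.74 to 12.2%) of cells. With 20 or more Fos UMIs it was found in 127 of 184 vehicle cells, or 69.0% (61.8 to 75.6%), and in 131 of 376 cisplatin cells, or 34.8% (30 to 39.9%). The share in vehicle cells with 5 to 9 Fos UMIs was 43.4% (40.5 to 46.3%), above that of the cisplatin cells highest in Fos. Dusp1 went the other way, with 50.5% (47.4 to 53.6%) of vehicle and 66.9% (64.2 to 69.4%) of cisplatin cells at 1 to 4 Fos UMIs. At 20 or more the Dusp1 shares were 85.3% (79.4 to 90.1%) and 89.1% (85.5 to 92.1%), and those of Atf3 72.8% (65.8 to 79.1%) and 74.5% (69.7 to 78.8%), with intervals that overlap, as they do in cells with no Fos UMI.

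**Figure D5:**
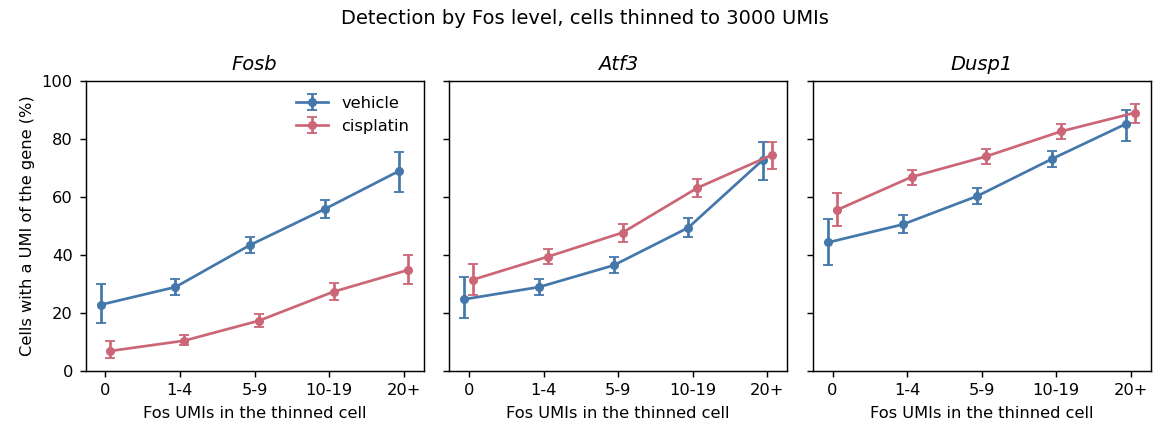
Share of thinned cells with a UMI of Fosb, Atf3 or Dusp1 (vertical axis, percent) by the number of Fos UMIs in the same cell, for the vehicle (blue) and cisplatin (red) libraries with exact 95% intervals. Every line is higher at higher Fos. For Fosb the cisplatin line lies below the vehicle line in every bin, for Dusp1 and Atf3 it lies above, with overlapping intervals at 0 and at 20 or more Fos UMIs.

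Genes outside the group followed it in the same cells. Of 6950 vehicle genes at 20 CPM or more, those with the highest Pearson r with the summed members over 3506 cells were Btg2 (0.54), an antiproliferative early gene, the co-chaperone Dnajb1 (0.41), the inhibitors of helix-loop-helix factors Id3 (0.39) and Id1 (0.32), and Zfp36 (0.34), which destabilises short-lived messenger RNAs. Of 6341 cisplatin genes they were Btg2 (0.55), Dnajb1 (0.455), the histone variant gene H3f3b (0.41), cytoplasmic actin Actg1 (0.41) and Id3 (0.38) over 3852 cells. The summed members had an r of -0.20 with the log of a cell's total before thinning in vehicle and -0.205 in cisplatin, and of 0.13 and 0.10 with the mitochondrial share.

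Other immediate early genes also lay on both sides. Of 43 listed, 41 were measured, with 9 higher in cisplatin, 4 lower and 28 within 1.5-fold, and a median log2 ratio of 0.20. Over all measured genes 8.12% were higher, 21.4% were lower and the median was -0.16. Relative to that median, 15 of the 41 were higher and 2 lower, beside 10.4% and 10.1% of all measured genes. Those higher included the kinase phosphatases Dusp5 (7.02 and 26.2 CPM) and Dusp6 (66.1 and 129 CPM) and the zinc-finger factor Egr4 (151 and 274 CPM). Klf4, a Krüppel-like factor, was lower (107 and 43.6 CPM), as were Klf6, Socs3 and Mcl1. Among relatives of Fosb, Fosl1 had 30 and 60 UMIs and was higher (0.936 CPM, 0.632 to 1.34, and 2.10 CPM, 1.60 to 2.70), and Fosl2 differed by less than 1.5-fold (21.8 and 25.3 CPM).

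The kinases and factors upstream of these genes were mostly within 1.5-fold. Of 29 measured, 1 was higher and 6 lower, where 8.12% and 21.4% of all measured genes were. Relative to the median of all genes 2 were higher and 2 lower, beside 10.4% and 10.1% of all measured genes. Mapk14, which encodes a stress-activated kinase, stood at 51.0 and 24.7 CPM, its relative Mapk11 at 7.46 and 3.89 CPM, and Map2k4, which activates JNK, at 21.2 and 12.7 CPM. Elk3, a ternary complex factor that works with serum response factor, had 28 and 65 UMIs (0.874 and 2.28 CPM), and Srf itself was at 25.6 and 26.9 CPM. Of 13 measured leucine-zipper partners, beside the same 8.12% and 21.4%, 1 was higher (Fosl1) and 3 were lower, among them Batf3 (11.3 and 5.95 CPM) and Batf (53 and 21 UMIs).

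Some heat shock genes, which also respond to handling, were higher in cisplatin. Of 12 measured, 5 were higher and 0 lower in cisplatin, with a median log2 ratio of 0.37. The shares of all measured genes, 8.12% higher and 21.4% lower with a median of -0.16, also stand beside the stress response, G1/S and mitotic counts that follow. Hspa1a, an inducible heat shock protein gene, stood at 154 and 454 CPM, its near-identical copy Hspa1b at 6.05 and 30.6 CPM, Hspb1 at 128 and 353 CPM and Bag3 at 10.7 and 21.0 CPM. Reads of Hspa1a and Hspa1b cannot always be told apart. Over cells, the summed heat shock and summed immediate early UMIs had an r of 0.265 in vehicle and 0.30 in cisplatin. Of 11 measured integrated stress response genes, 0 were higher and 1 was lower (Sesn2, 9.11 and 5.78 CPM), and Atf4, an activator of Atf3 in that response, was at 409 and 279 CPM. The median mitochondrial share was 2.78% and 3.36%. Of 10 measured G1/S genes 1 was higher (Rrm2), and of 10 mitotic genes 1 was higher (Ccnb1) and 2 lower (Mki67 and Cenpe).

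Summed marker sets differed between the libraries too, within the tumour class. The delta-like set, which was not used to leave out cells, was at 58.1 CPM under vehicle and 1080 CPM under cisplatin. Among sets of other cell types, the club cell set was at 204 and 474 CPM, and the alveolar type 2 set at 55.9 and 200 CPM. Most of the club cell set was 1 gene, Scgb1a1 (177 and 458 CPM), and most of the alveolar set in cisplatin was Sftpc (163 CPM). The neutrophil set was at 33.7 and 2.98 CPM, and the erythroid set at 53.9 and 0.735 CPM. The T cell, endothelial and macrophage sets stayed under 20 CPM in each library, with Adgre1 at 0 UMIs in both and Tie1 at 0 in cisplatin. The part of cells with these markers, of heat shock, of depth and of mitochondrial share in the member levels was not tested.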

How the data were processed

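Raw UMI counts per gene and barcode were deposited as 10x Genomics matrices, whole numbers with no normalization in the deposited files. Per the submitters' processing notes, Cell Ranger 2.0.2 and mm10 were used. Barcodes with under 500 genes, over 10% mitochondrial UMIs or at least 3 markers (each in under 2% of barcodes) of another cell type were left out. No doublet caller was run. UMIs were summed per library, scaled to CPM and compared as ratios, with 1 CPM added on the log2 scale. Genes with at least 50 UMIs counted as measured. Intervals are 95%: Poisson for levels, conditional binomial for ratios, Clopper-Pearson for shares. Odds ratios had 0.5 added to each count. Clustering (scanpy 1.11.5, igraph 0.11.9) used 2000 variable genes, 30 components, 15 neighbours and Leiden resolution 0.5, with both libraries together and no integration. TMM came from edgeR 4.0.16 and size factors from DESeq2 1.42.0. Coordinates are from GENCODE M21 and promoter sequences from RefSeq (GRCm38.p6). Python 3.11.15 was used, and the steps were tested on simulated data. Members and lists were chosen with earlier results of these data known. Named genes were the members, up to 4 genes per list with the largest absolute log2 ratio, and 5 per library most correlated with the members; Fosl2, Srf, Klf6, Socs3, Mcl1, the markers at 0 and the cluster genes were added after their values were seen. A gene that this rule names is not reported here.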

Additional observations from a re-analysis of the deposited data

How the results depend on the processing

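Counts of members past the limit depended on the fold. At the lower limit tried 7 were higher and at 2-fold 0, against 3 at 1.5-fold, while 1 was lower at each. The share of all measured genes past a limit was counted at 1.5-fold only. Whether the counts at the other limits exceed the background was therefore not tested. All other alternatives, on scaling, filters, cell groups and minimum UMIs, gave member counts within 1.5 times those at 1.5-fold. The scaling moved the median log2 ratio of all genes by 0.12 (TMM) or 0.14 (median-of-ratios), which shifts the members alike. Of 150 recomputed member ratios, none of a called member changed sign, and Fosb stayed between -1.79 and -1.47. The share of cells with at least 3 members was 96.66% in vehicle and 97.35% in cisplatin at 2000 UMIs, 99.8% and 99.7% at 5000, 99.9% and 99.8% unthinned, and 99.4% and 99.9% in cells with fewer than 2 mitotic UMIs. With at least 8 members, a limit chosen after seeing the data, it was 40.0% and 43.3%. The number of pairs past 1.5 was 0 by ratio and, chosen after seeing the data, 44 and 45 by odds ratio. No paired analysis was possible because each group has 1 library. Depth limits the rare members most: Nr4a1 averaged 0.225 and 0.347 UMIs per thinned cell.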
